A study of Mus musculus with 12 samples.

Results

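The signal relay below the Toll-like receptors was followed here through 10 genes, out of 23329 gene symbols listed in each count table: the interleukin-1 receptor associated kinases Irak1, Irak2, Irak3 and Irak4, the ubiquitin ligases Traf6 and Peli1, the kinase Map3k7 with its partner Tab2, the kinase Map3k8, and the receptor interacting kinase Ripk2. The genes were listed by symbol, with earlier results of these data known, and each had 1 row in every table. All 10 passed the filter on low counts (a CPM above 0.5 in every library of at least 1 group), as did 13038 of the 23329 genes. CPM is the count of a gene scaled to the size of its library, after edgeR's TMM normalization.

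The cultures were primary stromal cells of the small intestine of C57BL6/J mice, labelled intestinal myofibroblast, taken from embryos at E14.5 or from adult mice, freed of epithelium and used at passage 2 to 3. They received lipopolysaccharide (LPS) of E. coli O111:B4, or the vehicle PBS, for 6 h. The dose is printed as 10 µg/µl in the labels, and whether this unit is right could not be checked here. No group carried a genetic change, and each embryonic culture pooled 6 embryos, while 3 adult mice gave the adult cultures. Cultures and pairs are named below by the replicate number of the labels. That same-numbered LPS and PBS libraries of a stage share a culture was inferred and is not stated in the sources used here. The embryonic PBS, embryonic LPS, adult PBS and adult LPS groups held 3 libraries each, of stranded poly(A) RNA, with 18850224 to 32672370 counts per library assigned to genes, so that 3 counts, taken as the floor for counting error only, stood for 0.0897 to 0.145 CPM.

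When LPS engages its receptor complex, the adaptor Myd88 gathers the kinases IRAK4, IRAK1 and IRAK2 into an oligomer, which passes the signal to the ubiquitin ligase TRAF6. Ubiquitin chains built by TRAF6 and its partners are bound by TAB2, which brings in the kinase TAK1, encoded by Map3k7, and TAK1 switches on the IKK complex and the MAP kinases. TPL2, encoded by Map3k8, is released when IKK acts on the NF-kB precursor p105 and then drives the ERK branch, IRAK3 (IRAK-M) restrains the relay, and RIPK2 carries signals of the cytosolic peptidoglycan sensors NOD1 and NOD2.

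The labelled cell type was checked against its markers. Stromal markers summed to between 10237 and 21901 CPM and contractile markers to between 13622 and 29707 CPM in the 12 libraries, while T and B cell markers stayed at or under 0.207 CPM in sum. A list of 12 markers of macrophages and other leukocytes, all of them above the floor in every group, differed widely between cultures and was highest in embryonic cultures 2 and 3. In embryonic cultures 1, 2 and 3 it summed to 191, 378 and 2149 CPM under PBS and to 168, 846 and 1809 CPM under LPS. In adult cultures the sums were 160, 20.1 and 44.4 CPM under PBS and 176, 17.4 and 43.6 CPM under LPS. Endothelial markers (6 genes) reached 1790 CPM under PBS and 1717 CPM under LPS in adult culture 2, 371 and 342 CPM in adult culture 3, and at most 35.2 CPM in the other libraries. Epithelial markers summed to between 7.47 and 59.5 CPM. Nearly all of this was Krt20, at 7.04 to 59.1 CPM, while Epcam, Cdh1, Vil1 and Cdx1 each stayed at or under 1.11 CPM. Mesothelial markers summed to between 108 and 1041 CPM, and enteric neuron and glia markers to at most 10.2 CPM. In such bulk samples, fewer cells of a type and less RNA per cell cannot be told apart.

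The sequence just upstream of the annotated start sites is shown for 4 members that differed in behaviour. With LPS, Irak3 RNA was higher in every culture, while Peli1 RNA separated from PBS in embryonic cultures only. The level of Irak2 differed between the stages, and that of Irak1 hardly moved. RefSeq promoter sequences of GRCm38.p6 were searched for 8 of the 10 members. Map3k8 and Ripk2, both higher with LPS at both stages, were not searched, so the matches below do not cover them. Each line gives the bases before the outermost annotated start site, 5′ to 3′ on the strand of the gene, and capitals mark the bases that match the NF-kB consensus.
Peli1, chr11:21091074-21091282, plus strand: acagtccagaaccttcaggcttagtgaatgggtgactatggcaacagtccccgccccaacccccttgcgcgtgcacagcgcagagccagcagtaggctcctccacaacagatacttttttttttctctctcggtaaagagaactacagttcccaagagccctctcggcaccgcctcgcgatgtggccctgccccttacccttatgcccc
Irak3, chr10:120202131-120202380, minus strand: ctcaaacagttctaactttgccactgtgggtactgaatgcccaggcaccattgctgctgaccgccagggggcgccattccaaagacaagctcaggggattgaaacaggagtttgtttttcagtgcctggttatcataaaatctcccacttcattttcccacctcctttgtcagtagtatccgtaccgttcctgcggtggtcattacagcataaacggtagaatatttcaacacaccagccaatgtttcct
Irak2, chr6:113638217-113638466, plus strand: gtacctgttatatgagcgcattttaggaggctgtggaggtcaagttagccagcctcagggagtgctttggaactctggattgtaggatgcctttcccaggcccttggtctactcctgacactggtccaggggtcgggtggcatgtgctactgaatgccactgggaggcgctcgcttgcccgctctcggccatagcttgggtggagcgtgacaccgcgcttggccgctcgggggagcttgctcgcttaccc
Irak1, chrX:74023922-74024171, minus strand: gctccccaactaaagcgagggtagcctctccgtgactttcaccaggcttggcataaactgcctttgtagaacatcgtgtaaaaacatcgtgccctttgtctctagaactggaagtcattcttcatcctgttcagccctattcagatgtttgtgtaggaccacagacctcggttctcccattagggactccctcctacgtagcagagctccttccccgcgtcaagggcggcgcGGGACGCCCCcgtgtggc
The NF-kB consensus of 10 bases, searched on both strands of the 250 bases before each start site, occurred in 7.25% of 32851 RefSeq promoter windows. Among the members it was found in Irak1, at −18 to −9 from the start site, and in Map3k7, at −92 to −83, and it was not found in the windows of Irak2, Irak3, Irak4, Traf6, Peli1 or Tab2. The AP-1 motif TGANTCA, searched in the same way, occurred in 6.75% of the windows and in none of the members' windows. These are matches of letters only.

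LPS acted on a small number of the relay genes, as the plot of CPM by library shows. In embryonic stroma 3 of the 10 members, Map3k8, Ripk2 and Peli1, were called as risen (edgeR quasi-likelihood test over all tested genes, Benjamini-Hochberg adjusted p under 0.05 and a log2 fold change of at least 2), where 1.87% of all tested genes were. In adult stroma Ripk2 was the single member called, where 0.422% of all tested genes rose. No member fell past these thresholds at either stage, as 0.0537% of all genes did in embryonic and 0% in adult stroma. The same-numbered LPS and PBS libraries of a stage deviated together, and once the culture number was added to the fit as a replicate block the called members were again Map3k8, Ripk2 and Peli1 in embryonic stroma (3.02% of all genes) and were Map3k8 and Ripk2 in adult stroma (1.6% of all genes). Without the fold threshold, 5 members passed the blocked test in embryonic stroma (Irak3, Traf6, Map3k8, Ripk2 and Peli1, against 9.43% of all genes that rose) and 3 did in adult stroma (Irak3, Map3k8 and Ripk2, against 4.69%). The median log2 fold change of the 10 members was 0.37 in embryonic and 0.19 in adult stroma, beside -0.00027 and -0.0075 for all tested genes.

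**Figure D1:**
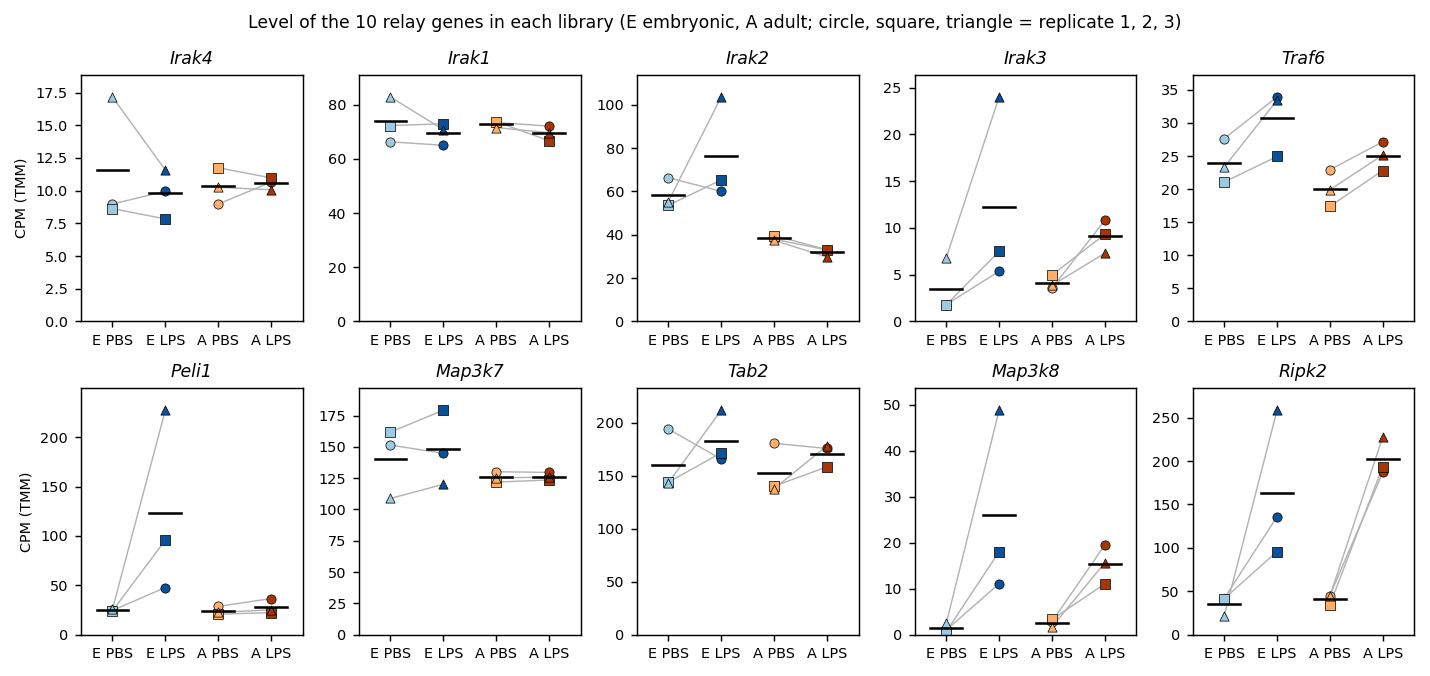
CPM of the 10 relay genes in each of the 12 libraries (y axis, linear from 0), by group on the x axis, with grey lines joining the PBS and LPS libraries of the same stage and replicate number and black bars at the group means. Map3k8 and Ripk2 with LPS lie above every PBS library at both stages, Peli1 does so in embryonic cultures only, and Irak1, Irak4, Map3k7 and Tab2 overlap between the groups.

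The kinases at the head of the relay held their levels. Irak4 (chr15:94543613-94568317), which phosphorylates the other kinases of the complex, lay between 7.84 and 17.2 CPM in the 12 libraries, with log2 fold changes for LPS of -0.24 in embryonic stroma (edgeR adjusted p = 0.962) and 0.03 in adult stroma (edgeR adjusted p = 1). Its highest value, 17.2 CPM, was in embryonic PBS library 3, which also had the highest summed leukocyte markers, and whether these are related was not tested. Irak1 (chrX:74013914-74023921), the kinase that binds TRAF6, was the steadiest of the 4, at 65.1 to 82.9 CPM. Its group means were 73.9 ± 8.38 (SD, n = 3) with PBS and 69.6 ± 4.10 with LPS in embryonic cultures, and 73.0 ± 1.19 and 69.5 ± 2.72 in adult cultures. All 4 groups of Irak1 overlapped, and neither stage passed the test (log2 fold changes -0.09 and -0.07, edgeR adjusted p = 0.969 and 1).

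Irak2 (chr6:113638467-113695026), a relative of Irak1 that sustains the signal to TRAF6, was the member that separated the stages. Embryonic cultures 1, 2 and 3 had 66.3, 53.6 and 55.3 CPM with PBS, against 38.0, 39.7 and 37.4 CPM in adult cultures. With LPS the embryonic cultures had 60.0, 65.3 and 104 CPM and the adult cultures 33.0, 33.1 and 29.7 CPM. Within each treatment every embryonic library lay above every adult library, with LPS as in 13.4% of all genes. With LPS the difference was 2.39-fold between group means (log2 fold change 1.26, SE 0.19, edgeR adjusted p = 0.00837), and the test was passed also in each fit that left out 1 library. With PBS it was 1.52-fold (log2 fold change 0.61, SE 0.19, edgeR adjusted p = 0.0959) and did not pass, although the groups did not overlap, as in 12.4% of all genes. DESeq2 gave an adjusted p of 0.0445 for the PBS comparison. Without both embryonic libraries numbered 3 the log2 differences were 0.64 with PBS (edgeR adjusted p = 0.0250) and 0.94 with LPS (edgeR adjusted p = 0.00565).

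Within a stage Irak2 did not pass the test for LPS. The adult LPS libraries all lay below the adult PBS libraries, at 0.79 to 0.87 of their paired values (log2 fold change -0.26, SE 0.19, edgeR adjusted p = 1, and 0.507 with the replicate block), and 5.39% of all genes separated in this way. In embryonic cultures the ratio of LPS to PBS was 0.91, 1.22 and 1.87 in cultures 1, 2 and 3, so the cultures moved in both directions. The difference between these responses had a log2 value of 0.65 (SE 0.26, unadjusted p = 0.0322 and adjusted p = 1 in edgeR).

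Irak3 (chr10:120141648-120202130), the kinase-dead relative known as a brake in monocytes and macrophages, was the lowest of the IRAK genes in mean CPM without LPS. It had 1.81, 1.80 and 6.82 CPM under PBS and 5.36, 7.49 and 24.0 CPM under LPS in embryonic cultures 1, 2 and 3. In adult cultures the values were 3.55, 4.96 and 3.85 CPM under PBS and 10.8, 9.32 and 7.30 CPM under LPS, with no overlap (9.1% of all genes separated so). LPS raised it in each of the 6 pairs, by 2.97-, 4.17- and 3.52-fold in embryonic and by 3.04-, 1.88- and 1.90-fold in adult cultures. In embryonic cultures the spread between cultures was as large as the response. The fit of group means gave log2 fold changes of 1.82 (SE 0.64, edgeR adjusted p = 0.249) and 1.15 (SE 0.63, edgeR adjusted p = 1). With the replicate block the same changes had SEs of 0.18 and passed at both stages (edgeR adjusted p = 0.000521 in embryonic and 0.00897 in adult stroma). Culture 3 of the embryonic group, which had the most leukocyte marker RNA under PBS and under LPS, also had the most Irak3 under both treatments. Without its 2 libraries the embryonic log2 fold change was 1.80 (edgeR adjusted p = 0.0173, and 0.00263 with the block), and Irak3 with PBS was then lower in the embryonic cultures than in the adult ones, by a log2 fold change of -1.20 (edgeR adjusted p = 0.0498).

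**Figure D2:**
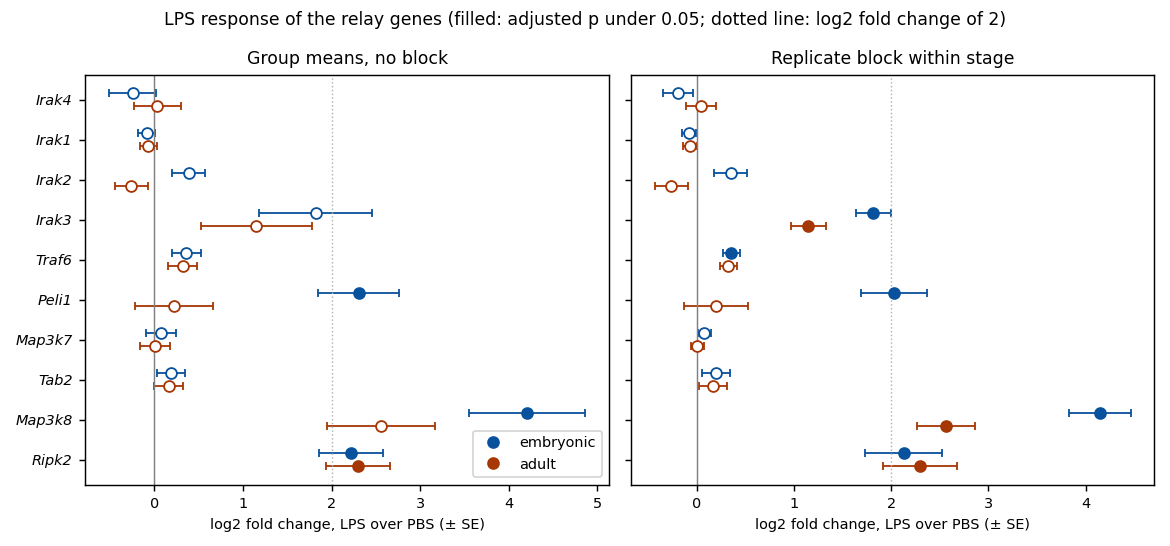
Log2 fold change of LPS over PBS (x axis, ± SE) for each relay gene in embryonic (blue) and adult (brown) stroma, from the fit of group means (left) and from the fit with the replicate block within a stage (right). Filled points passed an adjusted p of 0.05 and the dotted line marks a log2 fold change of 2. The SE of Irak3 falls from 0.64 to 0.18 in embryonic stroma between the panels while its log2 fold change stays at 1.82 and 1.81.

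Expressed as a share of the IRAK RNA, with each CPM divided by the exon length in kilobases, the family was made up mostly of Irak1 and Irak2 in every group. Irak1 took 48.7% ± 3.51 (SD, n = 3) and Irak2 41.4% ± 6.24 in embryonic PBS cultures, against 56.6% ± 1.30 and 31.8% ± 0.13 in adult PBS cultures. With LPS the share of Irak2 was 45.8% ± 3.30 in embryonic and 27.2% ± 1.07 in adult cultures. Irak3 took 2.82% ± 2.10 with PBS and 8.18% ± 4.90 with LPS in embryonic cultures, and 4.09% ± 0.61 and 9.32% ± 1.41 in adult cultures. The share of Irak4 stayed between 5.30% and 7.92% in the group means. These shares are given as a description and were not tested.

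Of the ubiquitin ligases, Traf6 (chr2:101678420-101701668) moved little and in the same direction in all 6 pairs. It had 27.6, 21.1 and 23.3 CPM under PBS and 33.9, 24.9 and 33.4 CPM under LPS in embryonic cultures, and 22.9, 17.4 and 19.9 CPM under PBS and 27.2, 22.8 and 25.1 CPM under LPS in adult cultures. The ratio of LPS to PBS ran from 1.18 to 1.43 in the pairs, while the treatment groups overlapped at each stage. The log2 fold changes were 0.36 (SE 0.16, edgeR adjusted p = 0.479) and 0.32 (SE 0.16, edgeR adjusted p = 1), and with the replicate block the embryonic one passed (SE 0.087, edgeR adjusted p = 0.0354) and the adult one did not (SE 0.088, edgeR adjusted p = 0.0828). The responses of the stages differed by 0.03 on the log2 scale, with an SE of 0.12 in the blocked fit, and this did not pass. Higher values with LPS in all 3 pairs of a stage were found in 23% of all genes in embryonic and in 24% in adult stroma.

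Peli1 (chr11:21091283-21150327) encodes Pellino 1, a ligase that adds ubiquitin to IRAK1. Its PBS levels lay in the same range at both stages, with 24.6, 24.3 and 26.1 CPM in embryonic and 28.7, 20.9 and 22.7 CPM in adult cultures. With LPS it stood at 47.8, 95.8 and 227 CPM in embryonic cultures 1, 2 and 3, all above every PBS library (7.58% of all genes separated so), and at 36.6, 22.3 and 25.2 CPM in adult cultures, which overlapped their controls. LPS over PBS was 1.94-, 3.95- and 8.69-fold in the 3 embryonic pairs and 1.28-, 1.07- and 1.11-fold in the adult pairs. The embryonic log2 fold change was 2.30 (SE 0.46, edgeR adjusted p = 0.0261, and 0.00745 with the replicate block), and the adult one 0.22 (SE 0.44, edgeR adjusted p = 1). Under LPS, Peli1 was 4.41-fold higher in embryonic than in adult stroma (log2 fold change 2.14, SE 0.46, edgeR adjusted p = 0.0290), where 1.91% of all genes were called as higher. With the replicate block as a random effect in limma-voom, this difference was 1.88 (limma adjusted p = 0.123) and no longer passed.

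The direct test of the difference between the stages in the response of Peli1 gave a log2 value of 2.09 (SE 0.63, unadjusted p = 0.00761) and did not pass adjustment over all genes (edgeR adjusted p = 1, and 0.230 with the replicate block). The size of the embryonic rise differed between the 3 cultures, in the same order as their leukocyte marker sums under LPS, 168, 846 and 1809 CPM. Embryonic PBS library 3 had the highest leukocyte sum of all libraries, 2149 CPM, and its Peli1 level was 26.1 CPM, within the range of the other PBS libraries. In embryonic culture 1, with sums of 191 and 168 CPM, the ratio of LPS to PBS for Peli1 was 1.94. It was 1.28 in adult culture 1, with sums of 160 and 176 CPM. Lyz2 made up 95.5 and 104 CPM of the adult sums but 40.9 and 43.1 CPM of the embryonic ones. Every other marker was higher in embryonic culture 1 under PBS, as were all but Csf1r and Cd68 under LPS. These cultures were thus not matched in leukocyte markers. The part that leukocytes had in the Peli1 response was not tested. Without both embryonic libraries numbered 3, the log2 fold change was 1.52 (edgeR adjusted p = 0.0812, and 0.00344 with the block) and the difference from adult stroma under LPS 1.31 (edgeR adjusted p = 0.0478). Without embryonic LPS library 3 alone these values were 1.48 (edgeR adjusted p = 0.0327) and 1.32 (edgeR adjusted p = 0.0445), both under the fold threshold, so that both calls were lost. Peli1 also lost its call in embryonic stroma without embryonic PBS library 1, 2 or 3 (edgeR adjusted p = 0.126, 0.0827 and 0.0859), and the call for the difference from adult stroma under LPS was also lost without adult LPS library 1, 2 or 3, with adjusted p up to 0.123.

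Map3k7 (chr4:31963492-32023470), the kinase TAK1 on which the branches converge, and Tab2 (chr10:7905648-7956255), its ubiquitin-binding partner, were among the most abundant members per length and did not pass the test at either stage. Map3k7 ran from 109 to 179 CPM in embryonic and from 122 to 130 CPM in adult cultures. Its lowest values, 109 and 120 CPM, were those of embryonic culture 3 with PBS and with LPS. The log2 fold changes for LPS were 0.07 (edgeR adjusted p = 0.999) and 0.01 (edgeR adjusted p = 1). Tab2 ran from 138 to 212 CPM over the 12 libraries, and its log2 fold changes were 0.19 (edgeR adjusted p = 0.886) and 0.16 (edgeR adjusted p = 1). The groups of both genes overlapped.

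Map3k8 lies on chromosome 18 and encodes TPL2, the MAP kinase kinase kinase that opens the ERK branch. It was the lowest member per length without LPS, at 1.02, 0.701 and 2.48 CPM in embryonic and 2.86, 3.32 and 1.70 CPM in adult cultures, all above the floor of 3 counts. With LPS it stood at 11.1, 18.1 and 48.8 CPM in embryonic and at 19.5, 11.1 and 15.6 CPM in adult cultures. Every LPS library lay above every PBS library of its stage, as in 7.58% of all genes in embryonic and 9.1% in adult stroma. The pairs rose by 10.8-, 25.8- and 19.7-fold in embryonic cultures and by 6.83-, 3.33- and 9.18-fold in adult cultures. The embryonic log2 fold change was 4.21 (SE 0.66, edgeR adjusted p = 0.00871), and it was 4.04 without both embryonic libraries numbered 3 (edgeR adjusted p = 0.00295). It was 3.33 without embryonic LPS library 3 and 4.91 without embryonic PBS library 3, and the embryonic call was lost without embryonic PBS library 1 (edgeR adjusted p = 0.0607).

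Map3k8 had an adult log2 fold change of 2.55 (SE 0.61, edgeR adjusted p = 0.133), which passed with the replicate block (SE 0.30, edgeR adjusted p = 0.00217) and in DESeq2 (adjusted p = 0.00165). The difference of the responses between the stages did not pass over all genes (log2 difference 1.65, SE 0.83, edgeR adjusted p = 1, and 1.58, SE 0.43, unadjusted p = 0.00629 and adjusted p = 0.260 with the block). With LPS the embryonic level was 1.69-fold the adult level, and the 2 groups overlapped (log2 fold change 0.75, SE 0.57), so that no difference passed. Adult culture 2 had the least leukocyte marker RNA, at 20.1 CPM under PBS and 17.4 CPM with LPS. The pan-leukocyte gene Ptprc stood there at 0.337 and 0.554 CPM. Map3k8 went from 3.32 to 11.1 CPM in this culture, a 3.33-fold rise, the smallest of any pair. The part that leukocytes had in the Map3k8 response was not tested. Adult culture 2 also had the most endothelial marker RNA, and without its libraries the adult log2 fold change was 2.94 (edgeR adjusted p = 0.411, and 0.00235 with the block).

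Ripk2 (chr4:16122732-16163678), the kinase of the NOD1 and NOD2 branch, was the member called at both stages. It had 41.7, 41.5 and 21.9 CPM under PBS and 136, 95.8 and 258 CPM under LPS in embryonic cultures, and 45.1, 34.4 and 44.5 CPM under PBS and 187, 194 and 227 CPM under LPS in adult cultures. Every LPS library lay above every PBS library of its stage, as in 7.58% of all genes in embryonic and 9.1% in adult stroma. The pairs rose 3.26-, 2.31- and 11.8-fold in embryonic and 4.14-, 5.63- and 5.11-fold in adult cultures. The log2 fold changes were 2.22 (SE 0.36, edgeR adjusted p = 0.0102) and 2.29 (SE 0.36, edgeR adjusted p = 0.0215). The difference between them was -0.07 (SE 0.49, edgeR adjusted p = 1), an SE that leaves a difference of the order of 1 log2 unit undetected.

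The embryonic rise of Ripk2 was widest in culture 3, where the PBS value was the lowest and the LPS value the highest of the stage, and without both libraries of that culture the log2 fold change was 1.45 (edgeR adjusted p = 0.0113). Adult culture 2, with the least leukocyte marker RNA, went from 34.4 to 194 CPM. The part that leukocytes had in the Ripk2 response was not tested. The adult call was lost without adult LPS library 1 or 3 or without any 1 of the adult PBS libraries (edgeR adjusted p from 0.0625 to 0.147), and without both libraries of adult culture 2 the log2 fold change was 2.20 (edgeR adjusted p = 0.224, and 0.0748 with the block). The embryonic call was lost without embryonic PBS library 1 (edgeR adjusted p = 0.0545), and also without embryonic LPS library 3 or embryonic PBS library 3, where the log2 fold change was 1.71 and 1.97, under the fold threshold.

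**Figure D3:**
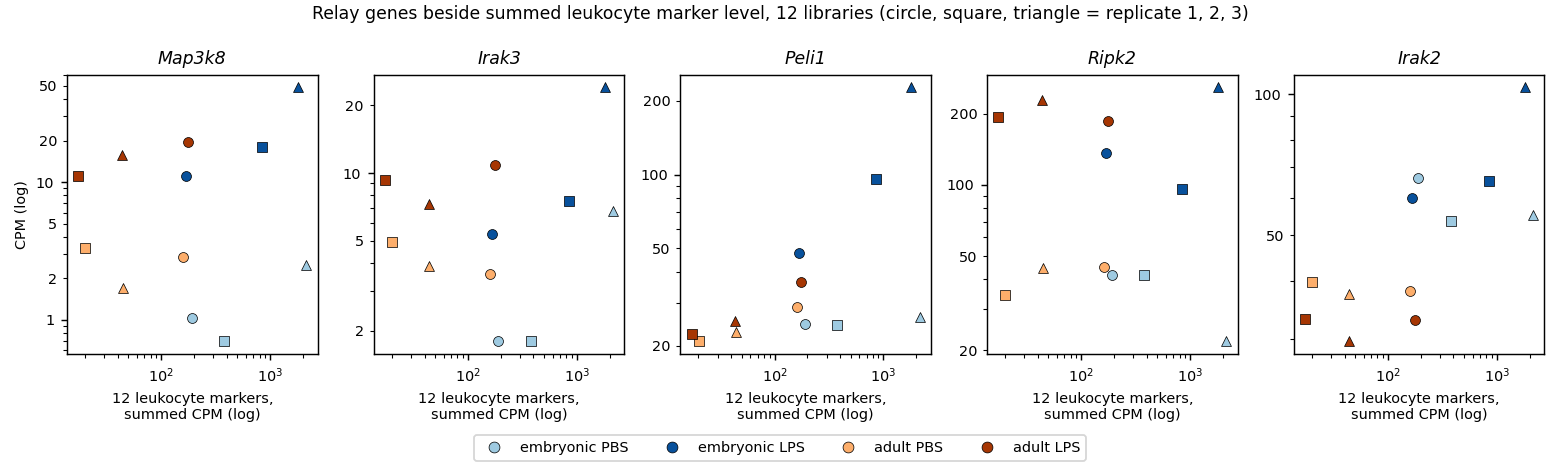
CPM of Map3k8, Irak3, Peli1, Ripk2 and Irak2 (y axis, log scale) against the summed CPM of 12 leukocyte markers (x axis, log scale) in the 12 libraries, coloured by group, with circle, square and triangle for replicate 1, 2 and 3. Embryonic LPS library 3, at a marker sum of 1809 CPM, holds the highest value of all 5 genes, and in adult culture 2, at 17.4 to 20.1 CPM, Ripk2 goes from 34.4 to 194 CPM.

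Embryonic LPS library 3 held the highest value of Irak2, Irak3, Peli1, Map3k8, Ripk2 and Tab2 among the 12 libraries. Its PBS partner, which had a still higher leukocyte sum of 2149 CPM, was the highest PBS library for Irak3 among the 6 and was the lowest for Ripk2. The part that leukocytes had in these values was not tested.

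Compared per kilobase of exon, so that genes can be set side by side, the relay genes spanned a wide range without LPS. In embryonic PBS cultures Tab2 had 26.2 ± 4.75 CPM per kb (SD, n = 3), Map3k7 21.9 ± 4.37, Irak1 15.7 ± 1.78, Irak2 13.2 ± 1.56 and Ripk2 12.4 ± 4.04. Peli1 followed with 3.82 ± 0.15 CPM per kb, Traf6 with 3.05 ± 0.42, Irak4 with 2.31 ± 0.96, Irak3 with 0.945 ± 0.79 and Map3k8 with 0.311 ± 0.21. The libraries of neighbouring genes in this order overlapped at each step but 2, from Ripk2 to Peli1 and from Peli1 to Traf6. With LPS, Ripk2 had the highest mean level of the 10 genes at both stages, with 58.0 ± 30.1 CPM per kb in embryonic and 71.9 ± 7.73 in adult cultures. Map3k8 reached 5.77 ± 4.46 CPM per kb in embryonic and 3.42 ± 0.94 in adult LPS cultures, and Peli1 18.9 ± 14.2 and 4.28 ± 1.15.

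**Figure D4:**
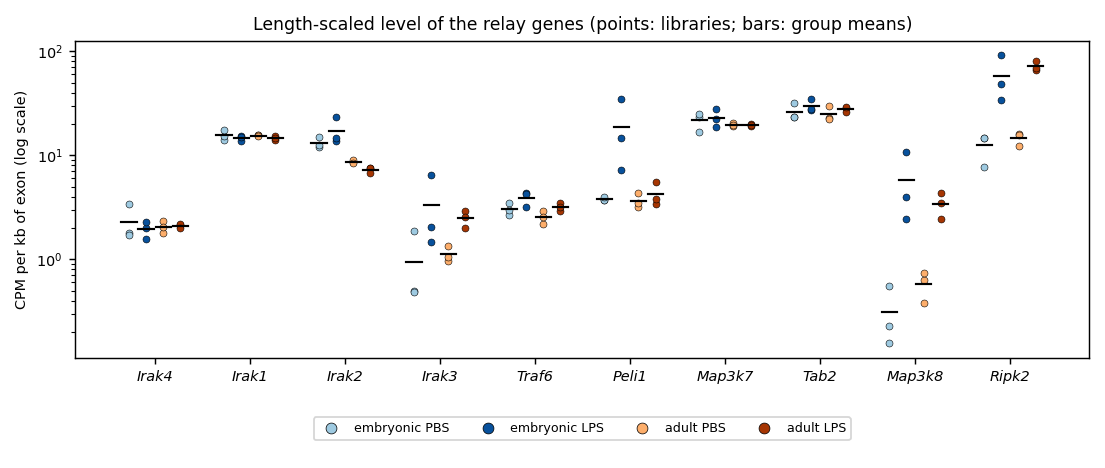
CPM per kilobase of exon (y axis, log scale) of the 10 relay genes in the 12 libraries (points) with group means (bars), for embryonic PBS, embryonic LPS, adult PBS and adult LPS from left to right within each gene. Map3k8 is lowest without LPS, at means of 0.311 and 0.584 CPM per kb, and Ripk2 is highest with LPS, at means of 58.0 and 71.9.

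Without LPS no member passed the test between the stages (0 of 10 in edgeR, where 4.08% of all genes did). At the same threshold DESeq2 passed Irak2 alone (DESeq2 adjusted p = 0.0445), and with the fold threshold it called none. At an unadjusted p under 0.05 edgeR listed Irak2 alone (19.8% of all genes). With LPS Irak2 and Peli1 passed as higher in embryonic stroma, where 3.04% of all genes did, and both groups separated fully, as in 13.4% of all genes. Ripk2 (log2 fold change -0.31, edgeR adjusted p = 0.660) and Irak3 (0.42, edgeR adjusted p = 0.750) did not pass. As the cultures of the stages are different, the replicate block could not enter these differences as a fixed term.

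The stage by LPS interaction, which asks whether a gene responded differently in embryonic and adult stroma, was passed by 0 of the 10 members in edgeR, with or without the replicate block, and by none in DESeq2. Of all genes, 0% passed without the block and 0.844% with it. At an unadjusted p under 0.05 the fit without the block listed Irak2 and Peli1 (2.25% of all genes), and the blocked fit listed Irak2, Irak3, Map3k8 and Peli1 (8.92% of all genes), each with the larger log2 fold change in embryonic stroma.

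The genes whose pattern over the 12 libraries was most like that of a member were sought by the root mean square (RMS) difference of centred log2 CPM. Map3k8 was nearest to Nfkbia, which encodes the NF-kB inhibitor IkBα (RMS difference 0.453), followed by Parp9 (0.484) and Bcl3 (0.509). Ripk2 was nearest to the scramblase Plscr1 (0.345), Tnip1 (0.362) and Nfkb2 (0.366), the latter a subunit gene of NF-kB. For Peli1 the nearest were Ttc39c (0.305), Trafd1 (0.338) and Setdb2 (0.349). For Irak3 they were H2-M3 (0.313), Lgals3bp (0.342) and Tnfrsf14 (0.360), and for Irak2 BC051226 (0.162), the lipid droplet gene Plin2 (0.164) and Ppp6r1 (0.235).

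Other genes of the pathway were counted in 4 lists, with a pass meaning an adjusted p under 0.05 in edgeR without a fold threshold, which 2.67% of all genes reached as rises in embryonic and 0.598% in adult stroma. With the replicate block, 9.43% of all genes passed as rises in embryonic and 4.69% in adult stroma. Of 7 genes of the receptor complex and its adaptors, 2 rose in embryonic stroma and none passed in adult stroma, where Cd14 passed with the block. Cd14, the co-receptor that hands LPS to the receptor, went from 12.4 ± 10.1 to 273 ± 286 CPM (SD, n = 3) in embryonic stroma (log2 fold change 4.45, SE 0.84, edgeR adjusted p = 0.0202) and from 3.50 ± 1.12 to 15.2 ± 4.61 CPM in adult stroma (log2 fold change 2.13, SE 0.79, edgeR adjusted p = 0.591, and 0.00112 with the block). Myd88, the adaptor that holds the IRAK kinases, went from 19.7 ± 3.42 to 79.7 ± 55.1 CPM in embryonic stroma (log2 fold change 2.01, SE 0.42, edgeR adjusted p = 0.0310) and from 25.7 ± 5.55 to 38.0 ± 9.31 CPM in adult stroma (edgeR adjusted p = 1). Cd14 was the single gene of the 4 lists that passed the interaction test, with the block and not without it.

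Of 23 relatives of the members and other relay kinases and ligases, 5 rose in embryonic stroma (Birc2, Birc3, Rnf31, Traf1 and Traf3) and 3 in adult stroma (Birc2, Birc3 and Traf3), and none fell. With the block 7 rose and 1, Map3k1, fell in embryonic stroma, and 4 rose in adult stroma. Traf1, a TRAF protein without a ligase domain, went from 0.121 ± 0.080 to 43.6 ± 40.8 CPM in embryonic stroma, from close to the floor (log2 fold change 8.45, SE 1.29, edgeR adjusted p = 0.00821), and from 0.769 ± 0.80 to 5.82 ± 1.11 CPM in adult stroma (edgeR adjusted p = 0.472, and 0.0138 with the block). Birc3, which encodes the ubiquitin ligase cIAP2, rose at both stages, with log2 fold changes of 3.40 (SE 0.31, edgeR adjusted p = 0.000916) and 2.45 (SE 0.30, edgeR adjusted p = 0.00683). Rnf31, the catalytic part of the linear ubiquitin ligase, rose in embryonic stroma from 12.3 ± 2.19 to 43.5 ± 26.6 CPM (edgeR adjusted p = 0.0200) and had 14.0 ± 1.39 and 18.5 ± 0.26 CPM in adult stroma (edgeR adjusted p = 1).

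Of 14 IKK, MAP2K and MAPK genes, the steps below the relay, none passed at either stage without the block in edgeR, and log2 fold changes ran from -0.38 to 0.71 in embryonic and from -0.15 to 0.50 in adult stroma. With the block Ikbkb rose and Mapk14 fell in embryonic stroma, and Map2k3 rose in adult stroma. A rise of 1 gene of 14 at each stage is near the 9.43% of all genes in embryonic and 4.69% in adult stroma. The share of all genes that fell with the block is not given here. Of 13 tested partners, sensors and brakes, 6 rose in embryonic stroma and 3 in adult stroma, and 9 and 7 with the block. Nfkbia rose at both stages, from 18.5 ± 3.13 to 358 ± 186 CPM in embryonic (log2 fold change 4.27, edgeR adjusted p = 0.00162) and from 29.0 ± 2.67 to 292 ± 142 CPM in adult stroma (log2 fold change 3.33, edgeR adjusted p = 0.00965). Nod2, the sensor upstream of RIPK2, went from 0.280 ± 0.28 to 10.1 ± 8.94 CPM in embryonic stroma (edgeR adjusted p = 0.0164). In adult stroma Nod2 went from 0.104 ± 0.040 to 1.72 ± 0.88 CPM (edgeR adjusted p = 0.147, and 0.000208 with the block). Its adult PBS level was close to the floor of 0.102 to 0.145 CPM in those libraries. Tnip3, a relative of the p105 partner ABIN-2, went from 0.826 ± 0.45 to 20.7 ± 13.3 CPM in embryonic stroma (edgeR adjusted p = 0.00689) and from 0.529 ± 0.25 to 6.27 ± 2.65 CPM in adult stroma (edgeR adjusted p = 0.0520, and 0.000536 with the block).

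**Figure D5:**
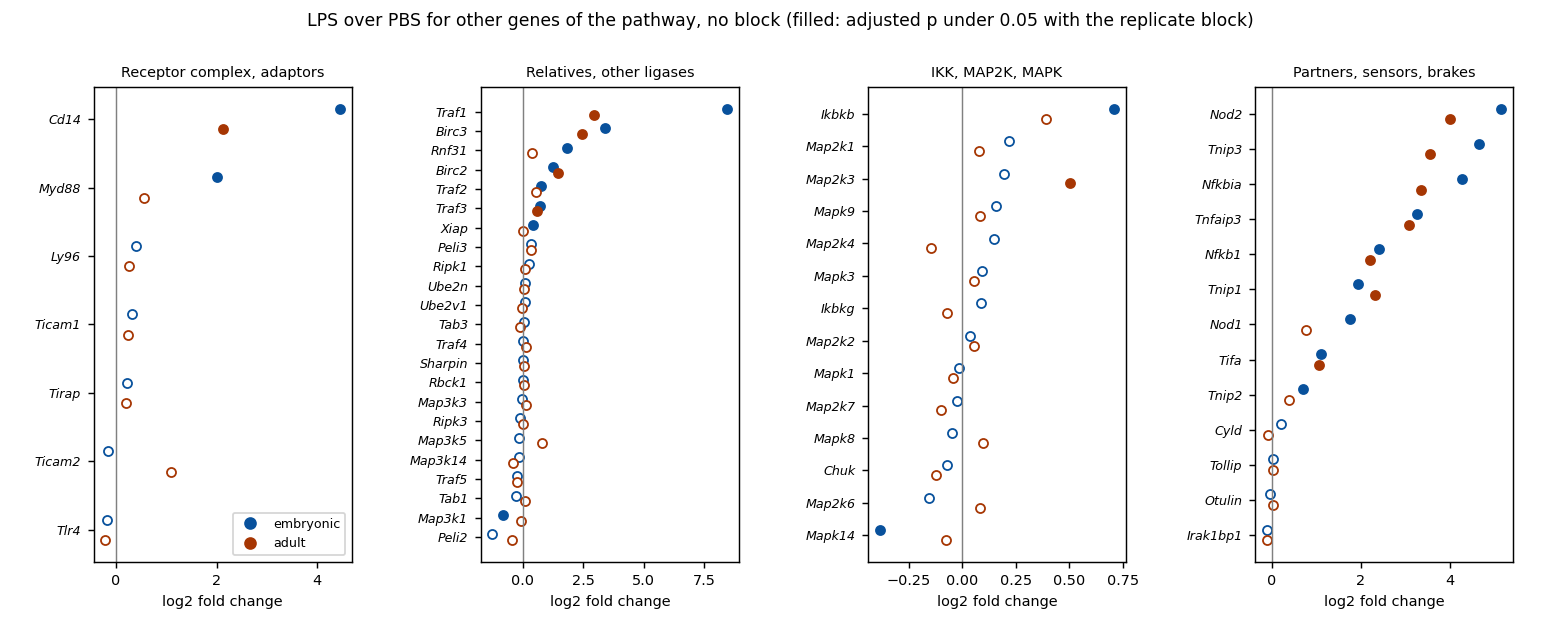
Log2 fold change of LPS over PBS (x axis) from the fit of group means for the other genes of the pathway, in 4 panels by list, for embryonic (blue) and adult (brown) stroma; points are filled where the fit with the replicate block gave an adjusted p under 0.05. Log2 fold changes of the 14 IKK, MAP2K and MAPK genes lie between -0.38 and 0.71, on a narrower axis than the other panels, while Traf1 reaches 8.45.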

How the data were processed

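Stranded poly(A) mRNAseq libraries (12, 3 in each of 4 groups) were grouped by the labels' age, treatment and replicate number. Per the study's methods and the labels, the authors trimmed the reads, mapped them to GRCm38.p6 (mm10) with STAR and kept unique hits; the deposited values are raw read counts per gene symbol, without normalization. The strand column that held nearly all gene counts was used (on the other strand lay at most 0.891% of a member's counts over both strands), and reads assigned to no gene were left out.

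Counts were tested in R 4.3.3 with edgeR 4.0.16 (TMM, quasi-likelihood test, Benjamini-Hochberg adjustment over all 13038 tested genes), with all 12 libraries in a model of group means. The sources used here do not say that same-numbered LPS and PBS libraries share a culture. Their deviations from the group means correlated at 0.61 to 0.85 within a stage, against -0.75 to 0.02 for other pairs. Deviations from a group mean cancel out over the group, so positive same-numbered values by themselves lower the values of the other pairs. Because same-numbered libraries deviated together, a second fit of each LPS comparison took the number, separately in each stage, as a replicate block. The common biological coefficient of variation was 0.340 without and 0.126 with the block. P-values measure the spread between cultures only as far as libraries are separate cultures. Alternatives used DESeq2 1.42.0 and limma 3.58.1. The thresholds came from the study's text, log2 CPM used a prior count of 2, and exon lengths came from GENCODE M21 and gene positions from RefSeq, both on GRCm38. Scripts were tested on simulated data. No 2 libraries held identical counts. The members, gene lists, markers and alternatives were chosen with earlier results of these data known, and leaving out both embryonic libraries numbered 3, both adult libraries numbered 2, or the fold threshold together with the block was added after seeing the data. Named genes of a list are the 3 with the largest embryonic change among those that passed at either stage, and the nearest patterns are the 3 genes with the smallest RMS difference, with unnamed gene models passed over. Figures were drawn with matplotlib 3.10.9.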

Additional observations from a re-analysis of the deposited data

How the results depend on the processing

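Called members numbered 3 for LPS in embryonic stroma, 1 in adult stroma, 0 in the interaction, and 0 with PBS and 1 with LPS between the stages. An adjusted p under 0.01 left 1 (Map3k8), 0 and, between the stages with LPS, 0; without the fold threshold the last was 2 (Irak2 and Peli1). In adult stroma the likelihood ratio test, DESeq2, limma-voom with the block as a random effect, the replicate block within a stage and the fit of only the groups compared each gave 2 (Map3k8 and Ripk2); between the stages with LPS, limma-voom with the random block gave 0. Only the groups compared gave 0 in embryonic stroma and 0 between the stages with LPS, where Irak2 then had an edgeR adjusted p of 0.0715. The replicate block without a fold threshold gave 5 in embryonic and 3 in adult stroma. Without both embryonic libraries numbered 3 the counts were 1 in embryonic stroma, 2 in adult stroma and 0 between the stages with LPS, and with the replicate block as well 1 and 2. Without both adult libraries numbered 2 they were 0 in adult stroma and 0 between the stages with LPS. Leaving out each library in turn gave 0 to 3 in embryonic stroma, 0 to 2 in adult stroma, 0 to 0 in the interaction, 0 to 0 between the stages with PBS and 0 to 1 with LPS. With the replicate block across stages Peli1 had an edgeR adjusted p of 0.0521 in embryonic stroma. The replicate block changed no other call than those given with the results. RLE factors, other filters on low counts and counts on either strand moved no count of called members. Of the counts under an alternative, 100 stayed within 1.5 times the main count and 34 did not. Of the values of single members, 1181 stayed on their side of the threshold, 24 newly passed and 25 no longer passed. No value that passed changed sign, while values that did not pass could, such as Map3k8 between the stages with LPS (0.75, and -0.12 without both embryonic libraries numbered 3). Where a call changed, the cause was not tested, beyond the fewer libraries or the stricter threshold that define the alternative. At 3 libraries a group and the spread between cultures, a difference of the stages in response of the size seen for Peli1 or Map3k8 did not pass adjustment.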
